A study of Arabidopsis thaliana with 36 samples.

Results

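Iron (Fe) deficiency was examined in roots of fls2, an Arabidopsis thaliana mutant of the receptor kinase that perceives bacterial flagellin, while the roots were bathed in flg22, the flagellin peptide that this receptor binds. Roots of fls2 with flg22 and without Fe (3 libraries) were compared with roots of fls2 with flg22 and Fe (3 libraries). These are 6 of the 36 libraries of the series, chosen by their labels alone. Both groups carried the same mutation and received 100 nM flg22, so the comparison asks how roots respond to Fe supply when the peptide is present and its receptor is mutated. Seedlings 7 days old were moved from Fe-sufficient plates to liquid medium for 24 h, with 75 µM Fe or, for Fe deficiency, with 50 µM of the Fe chelator FerroZine. About 15 roots were pooled for each library, and neither the fls2 allele nor the meaning of the replicate numbers is given in the labels. Groups used beside these were untreated fls2 and flg22-treated wild type Col-0 (WT), each -Fe and +Fe, with 3 libraries a group. The rest of the series was untreated WT and the line UBQ10::mCitrine-IMA1 (labelled IMA1ox) under each treatment. Those libraries entered only the joint fit, through the gene filter, the scaling and the estimate of the spread. Below, -Fe and +Fe libraries are those of flg22-treated fls2 unless another group is named.

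Roots of dicots take up Fe by acidifying the soil, releasing coumarins that mobilise ferric Fe, reducing it at the plasma membrane and importing ferrous Fe. In Arabidopsis the IMA peptides and bHLH factors of subgroups IVc and Ib activate this programme together with FIT, and the BTS ligases restrain it. Surplus Fe is bound by ferritins or moved into vacuoles, and genes of that storage side are known to be low when Fe is scarce. Flagellin perception by FLS2 starts pattern-triggered immunity, which includes WRKY factors, peroxidases and an oxidative burst.

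Total counts of the 6 libraries ran between 31315531 and 40903411, and their normalisation factors between 0.986 and 1.01. FLS2 (AT5G46330) had 0, 0 and 2 counts in the -Fe libraries and 0, 3 and 1 counts in the +Fe libraries, against 125 to 237 counts in the 6 flg22-treated WT libraries. FRK1, a kinase gene used as a marker of flg22 perception, had 0.0631, 0.297 and 0.260 CPM in the -Fe libraries, against 0.413, 0.316 and 0.114 CPM in the +Fe libraries. In flg22-treated WT, FRK1 had 27.96, 23.6 and 20.6 CPM in -Fe WT roots, against 24.8, 19.4 and 23.6 CPM in +Fe WT roots. Every fls2 library lay below every WT library for this gene. PER5, a class III peroxidase gene, reached at most 0.286 CPM in the 6 fls2 libraries and 22.6 to 47.0 CPM in the 6 WT libraries. Root markers were present, with 79.7 ± 4.52 CPM in the -Fe libraries and 68.4 ± 3.68 CPM in the +Fe libraries (SD, n = 3 each) for the endodermal gene CASP1. Stele and root cap markers summed to 216 to 224 CPM in the -Fe libraries and 229 to 245 CPM in the +Fe libraries. Of 7 such genes tested 1 was called, against 5.3% of all genes. It was WOL, which fell (log2 fold change -0.26, adjusted p = 0.00134, edgeR). Green shoot markers summed to 140 to 153 CPM in the -Fe libraries and 177 to 212 CPM in the +Fe libraries, and of 10 such markers RBCS1B and RBCS2B had at most 4 counts in either group. Of those 10, 3 fell (PSAF, PSAN and LHCB5), PSAN losing its call in 4 and LHCB5 in all 6 of the fits that each left out 1 library (adjusted p up to 0.154 and 0.101, edgeR), and the part of shoot tissue in other results was not tested.

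Of 20354 genes tested, 1079 (5.3%) differed with Fe supply at an adjusted p under 0.05 (edgeR quasi-likelihood test with Benjamini-Hochberg adjustment). The -Fe roots had 423 genes higher (2.08%) and 656 lower (3.22%). At least 2-fold changes were found for 81 of the rises (0.398% of genes) and 46 of the falls (0.226%). The median log2 fold change over all genes was -0.00060. Groups that did not overlap in normalised counts (CPM, counts scaled to library size) were found for 28.5% of all genes. The count moved when 1 library was left out, in fits that hold fewer samples. It was 526 without +Fe replicate 2, 575 without +Fe replicate 3, 568 without -Fe replicate 1 and 538 without -Fe replicate 2. Without -Fe replicate 3 it was 863, and without +Fe replicate 1 it was 1163. Values after ± are SDs for mean CPM. For log2 fold changes they are approximate standard errors from the fit of all 36 libraries. These were taken as the absolute log2 fold change over the square root of the F value of the test.

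**Figure D1:**
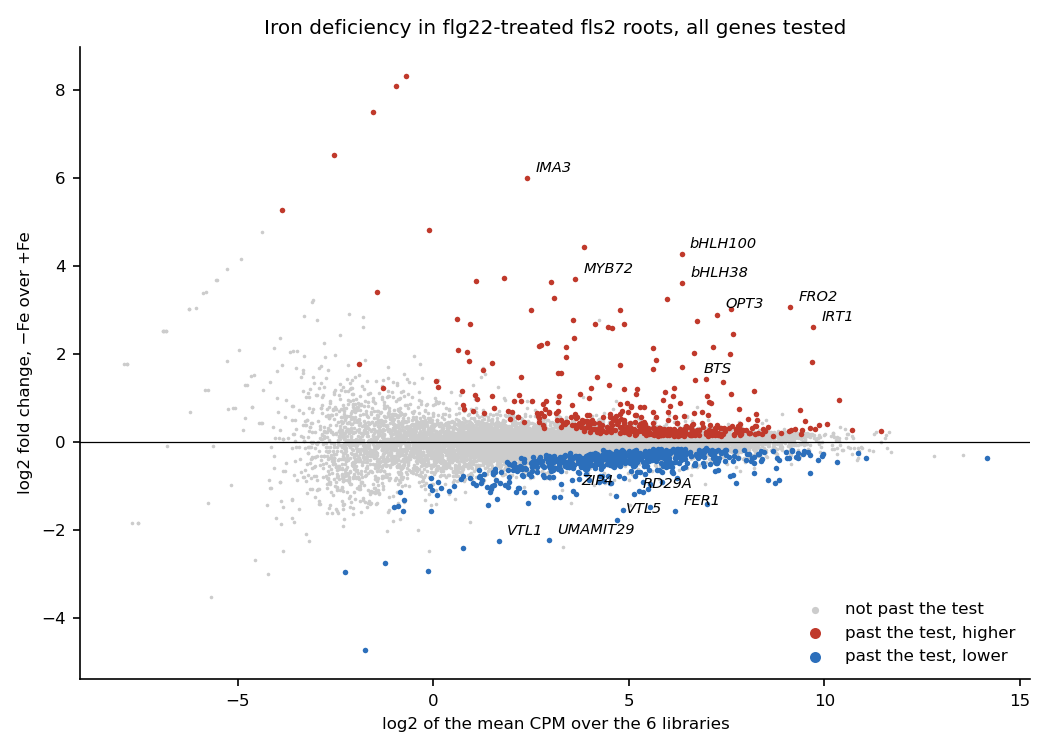
Log2 fold change (-Fe over +Fe) of each gene tested in flg22-treated fls2 roots against the log2 of its mean CPM over the 6 libraries. Red points (423 genes, higher) and blue points (656 genes, lower) passed the test, grey points did not, and the points at the upper left with few counts include genes with 0 counts in the +Fe group, whose fitted fold depends on the fit's prior.

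The genes of the signal peptides and of the subgroup Ib factors rose in -Fe roots. All 3 IMA genes tested rose, as did all 4 subgroup Ib genes, with median log2 fold changes of 2.68 and 3.44. IMA3 (AT2G30766), which encodes a small peptide that promotes Fe uptake, had 10.4, 10.7 and 9.84 CPM in the -Fe libraries, against 0.0953, 0.0288 and 0.342 CPM in the +Fe libraries. The gene was near absent with Fe in every library and present without Fe in every library. Its log2 fold change was 6.001 ± 0.58 (adjusted p = 5.00e-08, edgeR), the largest rise among the 390 genes that met the naming criteria, and 7.33 without +Fe replicate 3. IMA1 (AT1G47400) had 10.9, 11.6 and 10.99 CPM in the -Fe libraries, against 2.13, 3.02 and 2.08 CPM in the +Fe libraries. IMA2 (AT1G47395) averaged 30.5 ± 3.10 CPM in the -Fe libraries and 4.76 ± 0.858 CPM in the +Fe libraries (SD, n = 3 each). Neither pair of groups overlapped, and the log2 fold changes were 2.21 ± 0.23 for IMA1 and 2.68 ± 0.26 for IMA2.

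The subgroup Ib factors are bHLH proteins that act with FIT on the uptake genes. bHLH38 (AT3G56970) had 146, 153 and 157 CPM in the -Fe libraries, against 17.1, 12.9 and 7.27 CPM in the +Fe libraries. bHLH100 (AT2G41240) had 152, 149 and 163 CPM in the -Fe libraries, against 12.96, 7.19 and 3.99 CPM in the +Fe libraries. Every -Fe library lay far above every +Fe library for both genes. Log2 fold changes were 3.62 ± 0.48 for bHLH38 and 4.28 ± 0.66 for bHLH100 (adjusted p = 1.87e-05 and 1.49e-04, edgeR). bHLH39 (AT3G56980) and bHLH101 (AT5G04150) rose by 3.26 ± 0.30 and 3.27 ± 0.25 on the log2 scale. Among the -Fe libraries these genes varied little, while the +Fe libraries were more spread, with replicate 1 highest for all 4.

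**Figure D2:**
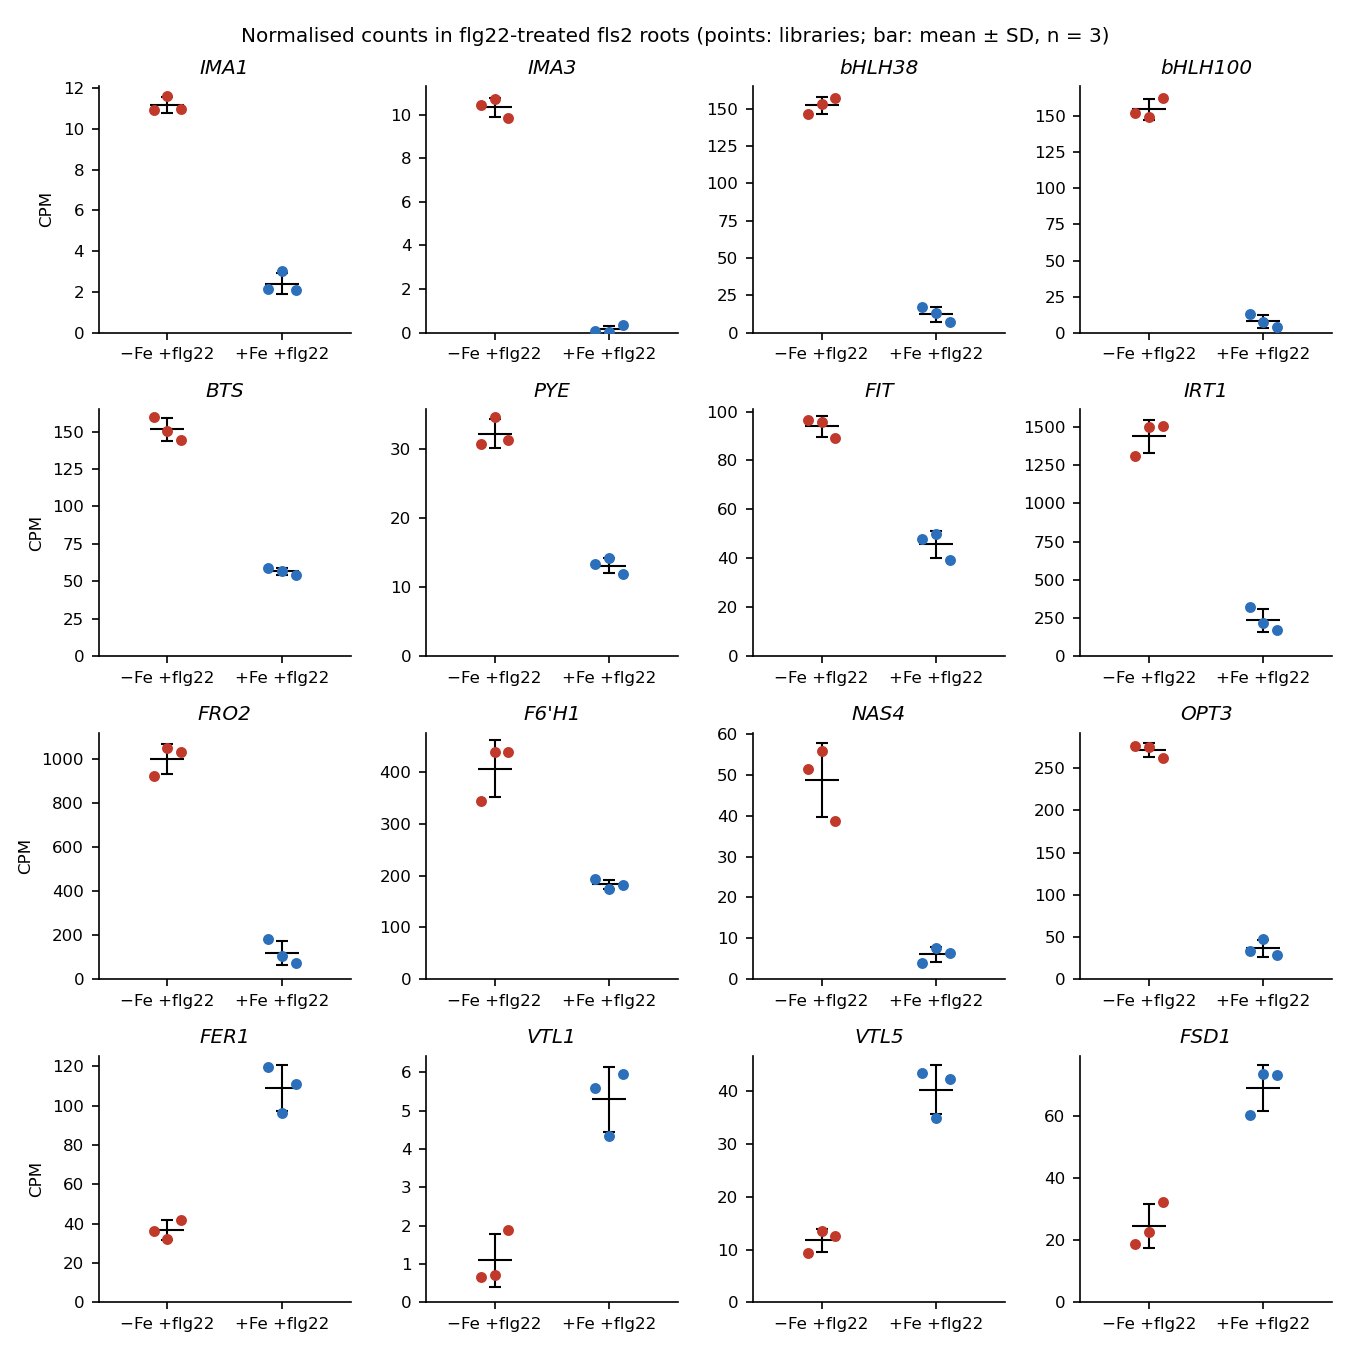
CPM of 16 genes in the 3 -Fe libraries (left, red) and the 3 +Fe libraries (right, blue) of flg22-treated fls2 roots, with the mean and SD. The first 12 genes lie higher in every -Fe library than in any +Fe library, and FER1, VTL1, VTL5 and FSD1 lie lower in every -Fe library.

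Upstream of these, 4 of 10 genes of the BTS, PYE and bHLH IVb/IVc list rose and 1 fell. BTS (AT3G18290), a ubiquitin ligase that restrains the Fe deficiency response, had 159.7, 150.4 and 144 CPM in the -Fe libraries, against 58.8, 56.7 and 54.3 CPM in the +Fe libraries. Its libraries were tight within each group and did not overlap between groups, and the log2 fold change was 1.42 ± 0.0955 (adjusted p = 2.76e-11, edgeR). AT1G74770 and AT1G18910, listed as zinc ion binding proteins, rose by 1.37 ± 0.12 and 0.57 ± 0.0588. PYE (AT3G47640), a bHLH factor of Fe homeostasis, averaged 32.2 ± 2.12 CPM in the -Fe libraries and 13.1 ± 1.11 CPM in the +Fe libraries (SD, n = 3 each) and rose by 1.30 ± 0.0875. bHLH11 (AT4G36060), whose product is known as a negative regulator of Fe homeostasis, had 2.43, 3.24 and 3.05 CPM in the -Fe libraries, against 6.10, 5.55 and 6.58 CPM in the +Fe libraries. It fell, with a log2 fold change of -1.06 ± 0.14. The IVc factor gene ILR3 did not pass, its log2 fold change being 0.071 ± 0.0476 (adjusted p = 0.417, edgeR).

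FIT (AT2G28160), the bHLH factor required for uptake gene activation, had 96.7, 95.9 and 89.2 CPM in the -Fe libraries, against 47.97, 49.7 and 39.2 CPM in the +Fe libraries. The -Fe libraries were all above the +Fe libraries and the log2 fold change was 1.04 ± 0.17 (adjusted p = 2.25e-04, edgeR). MYB72 (AT1G56160) and MYB10 (AT3G12820), MYB factors needed for growth on low Fe, rose by 3.70 ± 0.64 and 2.69 ± 0.39. MYB72 rose by 4.38 without +Fe replicate 1. NAI1 (AT2G22770), of bHLH subgroup IVa, fell (log2 fold change -0.33 ± 0.0843), a call that missed the threshold without +Fe replicate 2 or any single -Fe library (adjusted p up to 0.125).

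In the uptake list 4 of 6 genes rose and none fell. IRT1 (AT4G19690), the main ferrous Fe importer of the root epidermis, had 1313, 1498 and 1505 CPM in the -Fe libraries, against 318, 216 and 168 CPM in the +Fe libraries. FRO2 (AT1G01580), the ferric chelate reductase, had 923, 1049 and 1033 CPM in the -Fe libraries, against 180.5, 105 and 75.1 CPM in the +Fe libraries. Every -Fe library lay far above every +Fe library for both, but +Fe replicate 1 was the highest of its group. Log2 fold changes were 2.62 ± 0.70 (adjusted p = 0.0275) and 3.06 ± 0.76 (adjusted p = 0.0174, edgeR). These standard errors draw on the spread in all 36 libraries, not these 6 alone. In +Fe WT roots under flg22, IRT1 had 13.9, 2.34 and 121 CPM. Over the 6 fits that each left out 1 library, adjusted p lay between 0.0432 and 0.129 for IRT1, missing the threshold in 5 (all but the one without +Fe replicate 1), and between 0.0263 and 0.0991 for FRO2, missing it without +Fe replicate 2 or 3. IRT2 (AT4G19680) and AHA7 (AT3G60330), a proton pump gene, rose by 1.85 ± 0.27 and 0.82 ± 0.14. The pump AHA2 had a log2 fold change of 0.33 ± 0.12 (adjusted p = 0.119), and the transporter NRAMP1 of 0.011 ± 0.0763 (adjusted p = 0.956, edgeR).

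Coumarin genes rose in 6 of 8 cases. F6'H1 (AT3G13610), which makes the scopoletin precursor, had 343, 439 and 438 CPM in the -Fe libraries, against 193, 174 and 182 CPM in the +Fe libraries. The groups did not overlap, and the log2 fold change was 1.15 ± 0.18 (adjusted p = 1.81e-04, edgeR). BGLU42 (AT5G36890), a glucosidase, and ABCG37 (AT3G53480), a coumarin exporter, rose by 1.14 ± 0.16 and 0.74 ± 0.10. CYP82C4 (AT4G31940), which makes sideretin, had 273, 335 and 435 CPM in the -Fe libraries, against 83.4, 19.1 and 26.5 CPM in the +Fe libraries. It rose by 3.02 ± 0.90 at an adjusted p of 0.0496, the weakest call among the genes named for their size, and the +Fe library of replicate 1 stood above the others. Without it the log2 fold change was 3.93, and without any other single library the call was lost (adjusted p up to 0.214). CYP82C4 also missed the threshold when scaled by library totals alone (adjusted p = 0.0515), with no filter on low counts (0.0563) and in a fit of the 6 libraries alone (0.0853, all edgeR).

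S8H (AT3G12900), the enzyme that makes fraxetin, had 15.4, 31.6 and 51.2 CPM in the -Fe libraries, against 13.98, 0.230 and 0.570 CPM in the +Fe libraries. The groups did not overlap, but +Fe replicate 1 stood just below the lowest -Fe library, and S8H did not pass (log2 fold change 2.77 ± 1.09, adjusted p = 0.143, edgeR). Without that library it passed, at 6.35 with adjusted p = 0.0220. Smaller rises were those of AT1G28680, an acyl-transferase gene (0.25 ± 0.0731), and CCoAOMT1 (0.29 ± 0.0747), and these calls were lost in 6 and 3 of the 6 fits that left out 1 library. Of 6 genes at the entry of phenylpropanoid synthesis 4 rose: PAL2 (AT3G53260) by 0.74 ± 0.12, 4CL2 (AT3G21240) by 0.90 ± 0.11, PAL1 (AT2G37040) by 0.39 ± 0.0773 and 4CL1 (AT1G51680) by 0.41 ± 0.11, the last not in 5 of the 6 leave-one-out fits.

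All 5 vacuolar sequestration genes rose, with a median log2 fold change of 1.92. These transporters are known to keep zinc and other metals that enter through IRT1 away from the cytosol. ZIF1 (AT5G13740), a nicotianamine transporter of the tonoplast, had 77.9, 75.5 and 69.9 CPM in the -Fe libraries, against 25.1, 23.3 and 21.9 CPM in the +Fe libraries. Its groups were tight and far apart, and the log2 fold change was 1.67 ± 0.11 (adjusted p = 1.77e-11, edgeR). MTP3 (AT3G58810), HMA3 (AT4G30120) and FPN2 (AT5G03570) rose by 2.03 ± 0.27, 1.92 ± 0.23 and 1.09 ± 0.13. AT3G58060, a cation efflux family gene, averaged 9.99 ± 1.10 CPM in the -Fe libraries and 1.25 ± 0.495 CPM in the +Fe libraries (SD, n = 3 each) and rose by 3.01 ± 0.45.

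The 12 tested genes of nicotianamine synthesis and internal Fe transport split, 5 rising and 2 falling. OPT3 (AT4G16370), which loads Fe into the phloem, had 277, 276 and 262 CPM in the -Fe libraries, against 32.8, 47.5 and 28.98 CPM in the +Fe libraries. NAS4 (AT1G56430), a nicotianamine synthase, had 51.5, 55.9 and 38.6 CPM in the -Fe libraries, against 3.91, 7.71 and 6.52 CPM in the +Fe libraries. Both were higher in every -Fe library, by 2.90 ± 0.23 and 3.001 ± 0.35 on the log2 scale (adjusted p = 5.83e-09 and 2.01e-06, edgeR). FRO3 (AT1G23020), a mitochondrial ferric reductase, and NRAMP4 (AT5G67330), which exports Fe from the vacuole, rose by 1.99 ± 0.18 and 1.23 ± 0.0976. NAS1 (AT5G04950) rose by 1.44 ± 0.40, a call that held in only 1 of the 6 leave-one-out fits. The metal-nicotianamine transporter genes YSL2 (AT5G24380) and YSL3 (AT5G53550) fell, with log2 fold changes of -0.94 ± 0.20 and -0.72 ± 0.13. NAS3 had 0 counts in both groups.

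The storage side moved the other way: of 9 tested ferritin and vacuolar Fe transporter genes 6 fell and 1 rose, with a median of -0.86. FER1 (AT5G01600), the ferritin with the largest change here, had 36.2, 32.2 and 41.99 CPM in the -Fe libraries, against 119.8, 96.5 and 111 CPM in the +Fe libraries. VTL5 (AT3G25190), a vacuolar Fe transporter-like gene, had 9.28, 13.5 and 12.5 CPM in the -Fe libraries, against 43.6, 35.02 and 42.4 CPM in the +Fe libraries. Both lay lower in every -Fe library, with log2 fold changes of -1.57 ± 0.24 and -1.77 ± 0.28 (adjusted p = 1.16e-04 and 2.01e-04, edgeR). VTL1 (AT1G21140) had 0.663, 0.717 and 1.90 CPM in the -Fe libraries, against 5.59, 4.34 and 5.95 CPM in the +Fe libraries, and fell (log2 fold change -2.25 ± 0.25, or -2.92 without -Fe replicate 3, the library with the highest -Fe value). FER4 fell (-0.86 ± 0.15), as did VTL2 (-0.97 ± 0.19) and FER3 (-0.40 ± 0.11), the last losing its call in every leave-one-out fit. YSL6 rose slightly (0.26 ± 0.0663), and lost its call in 3 of 6 such fits.

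Of 8 genes for Fe and copper enzymes of redox defence 4 fell and 2 rose. FSD1 (AT4G25100), the Fe superoxide dismutase, had 18.8, 22.6 and 32.4 CPM in the -Fe libraries, against 60.4, 73.6 and 73.2 CPM in the +Fe libraries. Every -Fe library lay below the +Fe libraries, the log2 fold change was -1.49 ± 0.34 (adjusted p = 0.00770, edgeR), and the call was lost without -Fe replicate 1 or 2 (adjusted p up to 0.0605). CSD1 (AT1G08830), a copper and zinc superoxide dismutase, and CCS, its copper chaperone, rose by 0.47 ± 0.0753 and 0.29 ± 0.0590. The haem enzyme genes CAT2, CAT1 and APX1 fell (log2 fold changes -0.38 ± 0.0645, -0.40 ± 0.11 and -0.23 ± 0.0632), CAT1 and APX1 losing their calls in 4 and 5 of the 6 leave-one-out fits.

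Zinc deficiency genes fell in 5 of 6 cases, with a median log2 fold change of -0.69. ZIP4 (AT1G10970), a zinc transporter, had 7.23, 7.71 and 7.52 CPM in the -Fe libraries, against 16.3, 15.3 and 17.2 CPM in the +Fe libraries. ZIP5 (AT1G05300) had 6.22, 4.70 and 5.78 CPM in the -Fe libraries, against 14.1, 12.2 and 13.4 CPM in the +Fe libraries. Neither gene's groups overlapped, and the log2 fold changes were -1.12 ± 0.13 and -1.25 ± 0.18 (adjusted p = 3.10e-07 and 2.62e-05, edgeR). ZIP3 fell too (-0.92 ± 0.11). ZIP1 (-0.46 ± 0.12) and the zinc pump HMA2 (-0.46 ± 0.13) also fell but lost their calls in 3 and 4 of 6 leave-one-out fits, and HMA2 also in a fit of the 6 libraries alone (adjusted p = 0.0599, edgeR). ZIP12 had 0 counts in both groups.

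Copper deficiency genes gave 3 falls of 7, and each lost its call in 4 or more of the 6 leave-one-out fits. The copper chaperone CCH (-0.75 ± 0.20) and AT1G71200, of the bHLH family (-2.75 ± 0.70), fell on the log2 scale. FRO5 (AT5G23990), a copper reductase gene, had 2 counts over the -Fe group and 59 over the +Fe group, a ratio of +Fe over -Fe of 32.2 (95% counting interval 8.52 to 272), and passed in none of those fits (a fitted log2 value of -7.27 without -Fe replicate 3). ZIP2 and FRO4 did not pass, with log2 fold changes of -1.43 ± 0.44 and -2.40 ± 0.87 (adjusted p = 0.0568 and 0.110, edgeR).

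**Figure D3:**
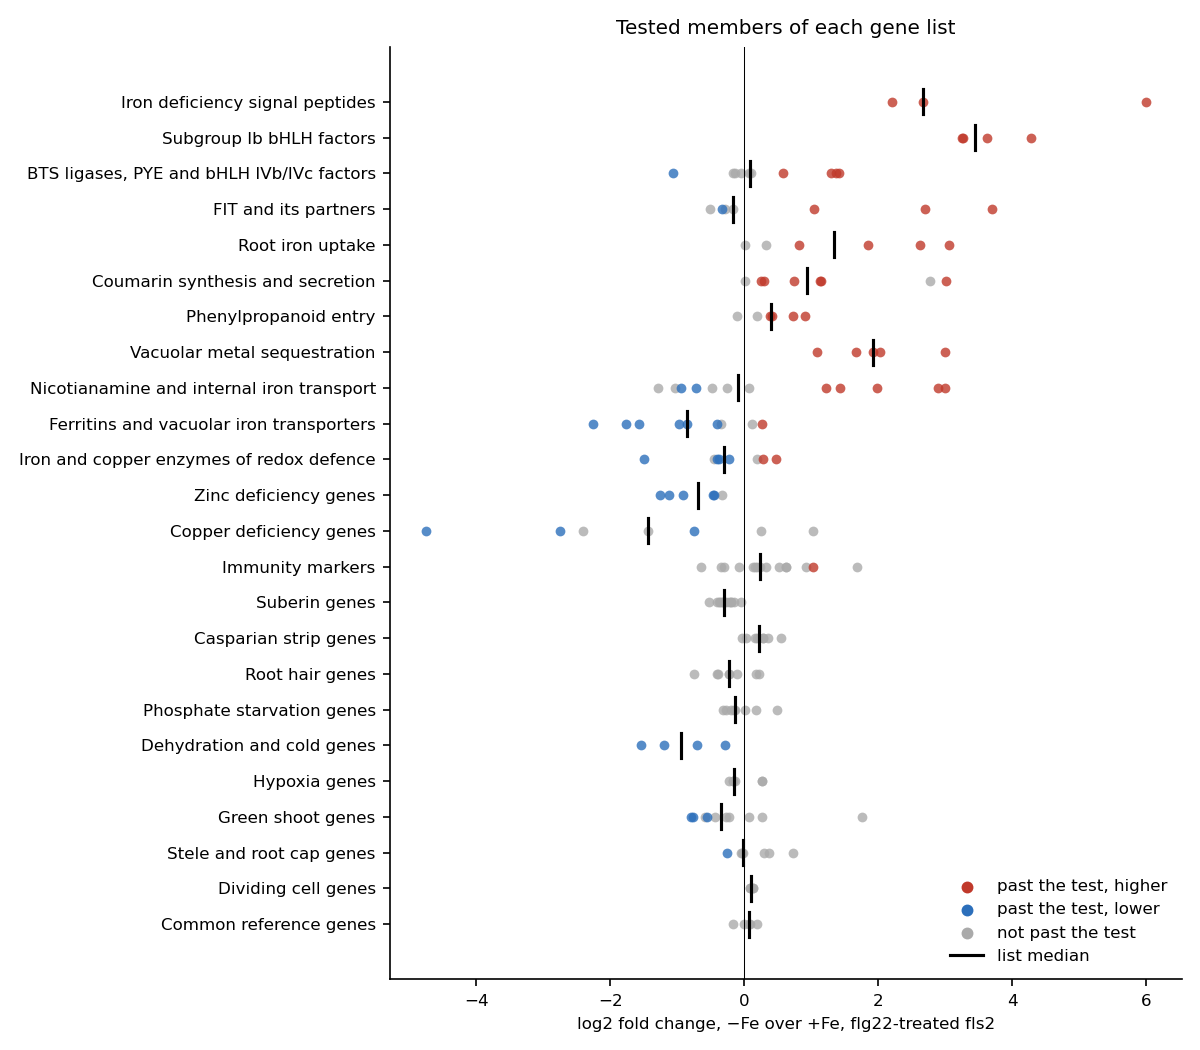
Log2 fold change (-Fe over +Fe) of each tested member of 24 gene lists in flg22-treated fls2 roots, with the list median as a black bar. The Fe peptide, subgroup Ib, uptake and vacuolar sequestration lists lie to the right of 0, and the ferritin, zinc and dehydration lists lie mostly to the left. The suberin list also lies to the left, though none of its genes passed.

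Of 15 tested immunity markers 1 passed, against 5.3% of all genes: RBOHD (AT5G47910), the NADPH oxidase of the immune oxidative burst. It had 148, 174 and 190.4 CPM in the -Fe libraries, against 80.9, 83.7 and 85.6 CPM in the +Fe libraries. Every -Fe library lay above every +Fe library, and the log2 fold change was 1.034 ± 0.13 (adjusted p = 6.98e-06, edgeR). RBOHD also passed in untreated fls2, with a log2 fold change of 0.89. The list summed to 294 to 362 CPM in the -Fe libraries and 224 to 233 CPM in the +Fe libraries. RBOHD is a large part of these sums, so their gap does not show a rise of the other markers, none of which passed. No gene passed among 13 suberin, 9 Casparian strip, 8 root hair, 8 phosphate starvation, 6 hypoxia, 6 dividing cell and 5 reference genes. All 13 suberin genes nevertheless had log2 fold changes below 0 (-0.52 to -0.053), as they did in untreated fls2. Of the Casparian strip genes 8 of 9 lay above 0. The lists were not tested as sets. Of these 55 genes 12 passed at an unadjusted p under 0.05 in edgeR (20.9% of all genes did). By list these were 5 Casparian strip, 2 suberin, 2 root hair, 2 reference and 1 phosphate starvation genes. DESeq2 called 1 of the 55 and limma-trend 0. In edgeR on the 6 libraries alone 7 were called, namely 3 root hair, 2 Casparian strip, 1 suberin and 1 reference genes. Hypoxia genes summed to 142 to 307 CPM in the -Fe libraries and 164 to 364 CPM in the +Fe libraries.

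All 4 tested dehydration and cold genes fell, with a median log2 fold change of -0.94. RD29A (AT5G52310), a dehydration-responsive gene, had 21.3, 21.1 and 21.7 CPM in the -Fe libraries, against 43.9, 47.6 and 54.6 CPM in the +Fe libraries. KIN1 (AT5G15960), a cold-induced gene, had 15.2, 13.6 and 15.3 CPM in the -Fe libraries, against 36.8, 35.4 and 55.98 CPM in the +Fe libraries. Both pairs of groups were separate, with log2 fold changes of -1.19 ± 0.11 and -1.54 ± 0.28 (adjusted p = 2.57e-08 and 7.96e-04, edgeR). ERD10 (-0.70 ± 0.11) and COR47 (-0.28 ± 0.0728) fell as well, the call of COR47 being lost in 4 of 6 leave-one-out fits. COR15A and RAB18 were too low to test.

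Other genes among the 12 largest changes each way, for which separate groups were a condition, were outside these lists. AT2G14247, uncharacterised, had 25.1, 26 and 31.1 CPM in the -Fe libraries, against 1.08, 1.67 and 1.026 CPM in the +Fe libraries. The lectin superfamily genes AT1G52130 and AT1G52120 rose by 3.73 ± 0.63 and 3.64 ± 0.75, or 4.36 and 4.82 without +Fe replicate 1. The call of AT1G52120 was lost in a fit of the 6 libraries alone (adjusted p = 0.0929, edgeR). AT2G14247 was separate between groups and rose by 4.44 ± 0.48. UMAMIT29 (AT4G01430), of an amino acid exporter family, had 2.49, 2.69 and 2.97 CPM in the -Fe libraries, against 8.93, 12.8 and 16.6 CPM in the +Fe libraries. It fell, its log2 fold change being -2.23 ± 0.20 (adjusted p = 1.55e-08, edgeR), with no overlap. Further falls on the log2 scale were those of AT3G59930, a defensin-like gene (-1.40 ± 0.28), WAK4, a wall-associated kinase gene (-1.40 ± 0.19), and AT2G03260, of the EXS family (-1.24 ± 0.15). The leucine-rich repeat kinase gene AT5G49770 (-1.22 ± 0.13) and CIPK13, a calcium-signalling kinase gene (-1.19 ± 0.22), fell too.

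The methionine and S-adenosylmethionine cycle, which supplies nicotianamine synthesis, was chosen as a list after values were seen. Of its 18 genes 8 rose and none fell, with a median log2 fold change of 0.24. SAM1 (AT1G02500), an S-adenosylmethionine synthetase gene, had 1674, 1778 and 1770.1 CPM in the -Fe libraries, against 966, 899 and 818 CPM in the +Fe libraries. Its groups did not overlap and it rose by 0.96 ± 0.0926. MTI1 and MTK, of the methionine salvage cycle, rose by 0.66 ± 0.0626 and 0.60 ± 0.0672. Also named after values were seen, GLP5, a germin-like protein gene, rose by 1.82 ± 0.20, GSTL1 by 2.75 ± 0.46 and AT3G07720 by 2.45 ± 0.31. ABCI8, a subunit of the plastid iron-sulphur cluster scaffold, fell (log2 fold change -0.95 ± 0.0737), as did IRT3 (-1.11 ± 0.11), HEMA1, of tetrapyrrole synthesis (-0.82 ± 0.14), and GLR2.3 (-2.94 ± 0.54). AT5G25840 had 56, 30 and 45 counts and AT1G62420 had 19, 25 and 32 counts in the -Fe libraries, against 0 counts of either gene in each +Fe library.

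Untreated fls2 roots gave the same comparison with independent libraries. There 431 genes passed (2.12%), 234 higher (1.15%) and 197 lower (0.968%), of which 62 and 22 changed at least 2-fold (0.305% and 0.108% of genes). With 1 of these libraries left out the count was 257 to 333. It was 257 without untreated +Fe replicate 2 and 286 without untreated -Fe replicate 2. The shares of calls below therefore rest on a count that moves with single libraries. Of the 423 rises under flg22, 185 were also called there, which is 43.7% of the rises under flg22 and 79.1% of those without it. Of the 656 falls, 150 were shared, 22.9% of the falls under flg22 and 76.1% of those without it. Whether or not they passed there, 98.6% of the 423 rises lay above 0 in untreated fls2, against 49.2% of all genes. Below 0 lay 98.3% of the 656 falls, against 50.7% of all genes. The test of the difference between the responses called 0 genes with edgeR (521, or 2.56%, at an unadjusted p under 0.05) and 0 with DESeq2. Values lay close for some members: IMA3 had log2 fold changes of 6.001 with flg22 and 5.52 without, BTS 1.42 and 1.34, ZIF1 1.67 and 1.61, and FER1 -1.57 and -1.63. Others lay further apart, such as MYB72 at 3.70 and 3.03 and ZIP4 at -1.12 and -0.52. IRT1 and FRO2, at 2.14 and 2.46 without flg22, did not pass there (adjusted p = 0.122 and 0.0938, edgeR). Missing the test does not show that the responses are equal.

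Flg22-treated WT roots, which carry the receptor, gave the same treatment pair in another genotype. Single WT libraries stood apart. RBCS3B, a shoot gene, had 29.99 CPM in -Fe WT replicate 2 and at most 2.34 CPM in the other 5, and FRO2 had 185, 39.5 and 149 CPM in -Fe WT roots, against 6.57, 2.40 and 74.5 CPM in +Fe WT roots. The FRO2 level of +Fe WT replicate 3 lay within the range of the -Fe WT libraries; the part of these libraries in the differences below was tested only by leaving each out. In WT 28 genes passed (0.138%), 24 higher (0.118%) and 4 lower (0.0197%). At least 2-fold changes were found for 14 of the rises (0.0688% of genes) and 0 of the falls. The count was 160 without +Fe WT replicate 3, 8 without +Fe WT replicate 2, 12 without +Fe WT replicate 1 and 13 without -Fe WT replicate 1. In WT the rises of IMA3, bHLH39, OPT3 and BTS passed, with log2 fold changes of 2.98, 2.03, 1.599 and 0.61. In flg22-treated fls2 these genes had 6.001, 3.26, 2.90 and 1.42. The test of the difference passed for BTS and not for IMA3, bHLH39 or OPT3 (adjusted p = 0.353, 0.468 and 0.0928, edgeR).

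The 234 rises of untreated fls2, chosen in libraries that neither comparison used, had a median log2 fold change of 0.50 in flg22-treated fls2 and 0.17 in flg22-treated WT, with 185 and 21 of them called. The 197 falls had medians of -0.48 and -0.17, with 150 and 2 called. The difference itself passed for 26 of the rises (11.1%) and 18 of the falls (9.14%), against 0.231% of all genes. The genes followed were chosen for an Fe response in fls2, so a share above that of all genes follows in part from the choice. With each WT library left out in turn, a check added after the data were seen, the WT medians ran between 0.12 and 0.21 for the rises and between -0.20 and -0.15 for the falls, and the difference passed for 11 to 23 rises and 9 to 14 falls. The lowest count for rises came without -Fe WT replicate 2 and the lowest for falls without -Fe WT replicate 3. Calls of rises in WT ran between 8 and 30, and of falls between 0 and 9, both highest without +Fe WT replicate 3. The 0 was found without +Fe WT replicate 1 and without +Fe WT replicate 2.

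**Figure D4:**
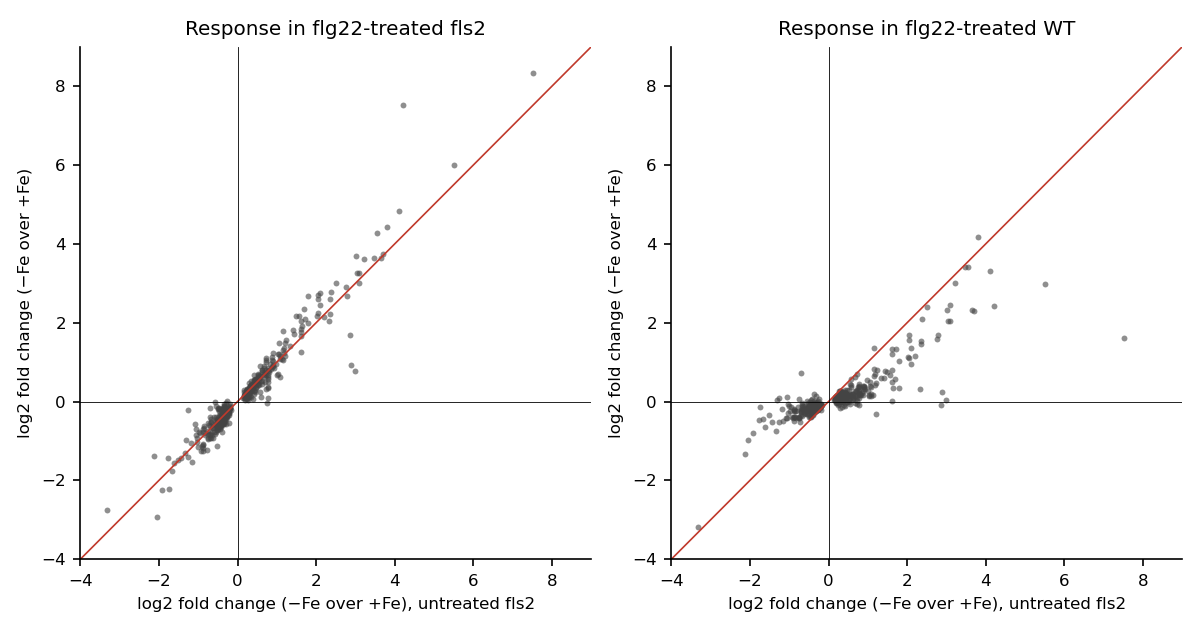
Log2 fold changes (-Fe over +Fe) of the 431 genes called in untreated fls2 roots, on the horizontal axis, against those in flg22-treated fls2 (left) and flg22-treated WT (right). The red line marks equal responses. Points follow it on the left, and on the right most lie nearer to 0, with medians of 0.17 for rises and -0.17 for falls.

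Across all genes, the Fe response under flg22 differed between fls2 and WT for 47 genes (0.231%), 27 with a more positive response in fls2 (0.133%) and 20 with a more negative one (0.0983%). All 47 were also called in flg22-treated fls2 and 6 in flg22-treated WT. The difference is taken between these same responses, so this split follows in part from the choice of genes. The largest positive differences were those of ZIF1, at 1.16 ± 0.15 (adjusted p = 1.88e-04, edgeR), ORG1 (AT5G53450), at 1.033 ± 0.23, and NET3A (AT1G03470), an actin-binding family gene, at 1.01 ± 0.21. ZIF1 in WT had 62.9, 42.8 and 57.4 CPM in -Fe WT roots, against 44.4, 34.6 and 36.04 CPM in +Fe WT roots. ZIF1 rose in both genotypes, by 1.67 in fls2 and 0.50 in WT on the log2 scale. The calls of ORG1 and NET3A were lost in 9 and 6 of the 12 fits that each left out 1 library. BTS, NRAMP4, PYE and AT1G18910 differed by 0.81 ± 0.13, 0.81 ± 0.14, 0.66 ± 0.12 and 0.56 ± 0.0835.

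The largest negative differences were those of UMAMIT29, at -2.09 ± 0.28 (adjusted p = 3.63e-04, edgeR), AT5G49770, at -1.08 ± 0.17, and ZIP4, at -0.91 ± 0.17. The call of ZIP4 was lost in 3 of the 12 leave-one-out fits. UMAMIT29 in WT had 5.77, 9.60 and 8.44 CPM in -Fe WT roots, against 10.2, 8.74 and 7.23 CPM in +Fe WT roots. Those WT groups overlapped. The fls2 groups did not, but separate fls2 groups were a condition for naming UMAMIT29 among the largest falls. For IMA3, bHLH38, IRT1 and FRO2 the difference did not pass (adjusted p = 0.353, 0.969, 0.985 and 0.969, edgeR), with estimates of 3.02 ± 0.93, 0.62 ± 0.71, 0.42 ± 0.95 and 0.89 ± 1.027. The count of 47 fell to 19 without +Fe fls2 replicate 3, 22 without +Fe replicate 2, 22 without -Fe replicate 2, 25 without -Fe replicate 1 and 27 without -Fe replicate 3, and to 25 without -Fe WT replicate 2, 30 without +Fe WT replicate 1 and 30 without +Fe WT replicate 3. Of 23 genes followed, 9 kept the call in every alternative: ZIF1, BTS, NRAMP4, AT1G18910, SAM1, MTI1, UMAMIT29, AT5G49770 and IRT3.

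**Figure D5:**
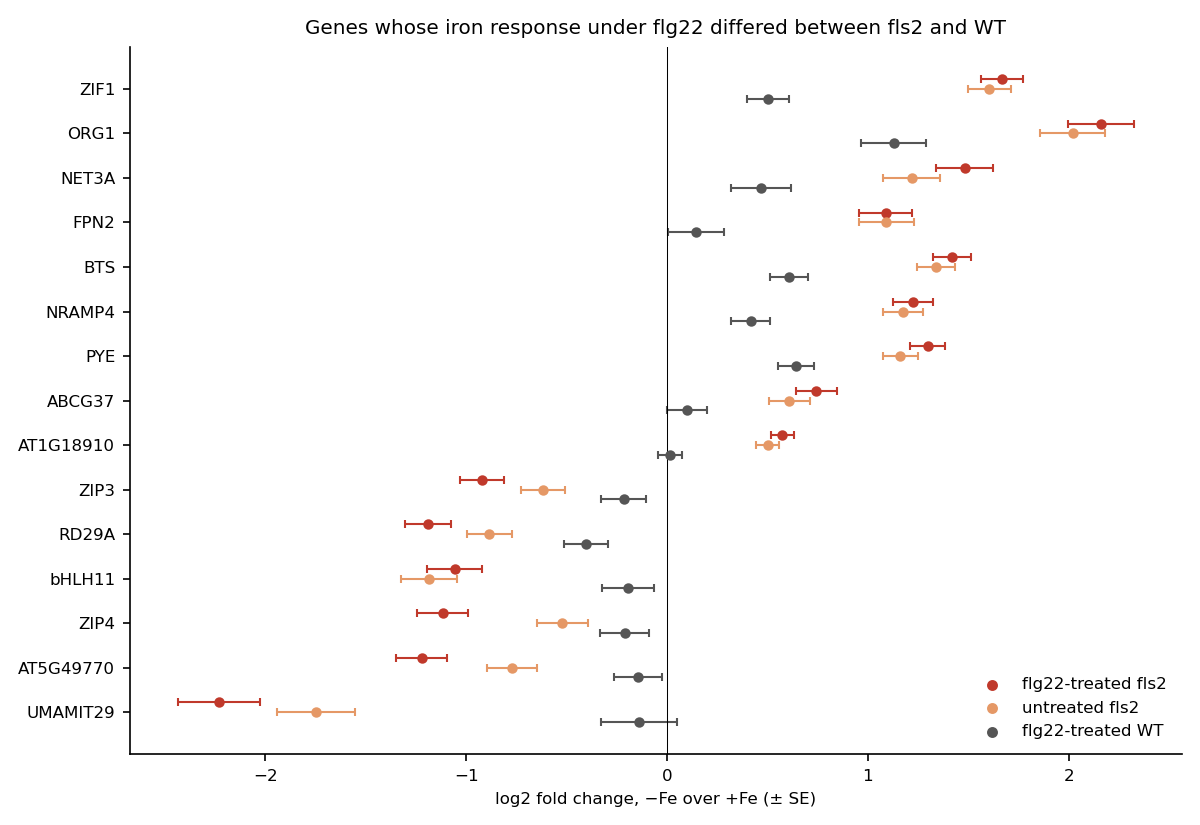
Log2 fold change (-Fe over +Fe) with its standard error in flg22-treated fls2 (red), untreated fls2 (orange) and flg22-treated WT (grey) for 15 genes whose response under flg22 passed the test of a difference between fls2 and WT, a choice that sets the gap shown. For ZIF1 the values are 1.67, 1.61 and 0.50, and for ZIP4, where untreated fls2 lies nearer to WT, -1.12, -0.52 and -0.21. The calls of bHLH11, ZIP3, ABCG37, ORG1 and FPN2 were lost in 7 to 11 of the 12 leave-one-out fits.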

How the data were processed

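RNA-seq counts of 36 root libraries were used, 6 of them from flg22-treated fls2. The authors deposited raw counts per gene locus and a normalised signal table in CPM. The submitters' processing notes list STAR 2.7.0a, edgeR 3.36.0 and the build TAIR10 but no roles for them. How reads were assigned to genes, by strand or between copies, is not given in the sources used here, so values of near-identical or overlapping genes (such as IMA1 and IMA2, IRT1 and IRT2, or AT1G52120 and AT1G52130) are uncertain. Gene symbols came from a RefSeq table of another build, so no positions are printed. IMA1 to IMA3, S8H and PER5 are common names outside that table.

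The deposited counts went into 1 fit of all 36 libraries with edgeR 4.0.16 (R 4.3.3), using TMM, filterByExpr with a minimum count of 10, a mean for each group and the robust quasi-likelihood test. Benjamini-Hochberg adjustment covered 20354 genes, with a threshold of 0.05. Differences between responses were contrasts of that fit. Each library is a pool, so p-values measure the spread between pools, estimated per gene over all 12 groups and not from the compared groups alone. Named genes were those with the 12 largest rises and 12 largest falls that passed, had separate groups and reached 5 CPM on average in either group, the 3 largest differences of responses each way, and members of 25 lists of 192 genes (183 tested). Others are said to be chosen after values were seen. The members and lists were chosen with earlier results of these data known. Alternatives, whose effects are given at the end, used DESeq2 1.42.0, limma 3.58.1 on log2 of CPM plus 1, other scalings and filters, fewer libraries and a replicate block. The code was tested on simulated data.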

Additional observations from a re-analysis of the deposited data

Results flagged for a closer look

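The Fe response under flg22 differed between fls2 and WT for 47 genes by the test of the difference itself. Genes named in the report for which it passed are given here (log2 difference of responses, fls2 minus WT). Genes with the more positive response in fls2 were ZIF1 (AT5G13740) at 1.16, ORG1 (AT5G53450) at 1.033, NET3A (AT1G03470) at 1.01, FPN2 (AT5G03570) at 0.94, BTS (AT3G18290) at 0.81, NRAMP4 (AT5G67330) at 0.81, PYE (AT3G47640) at 0.66, ABCG37 (AT3G53480) at 0.64 and AT1G18910 at 0.56. Those of the methionine cycle were SAM1 (AT1G02500) at 0.79, MTI1 (AT2G05830) at 0.53, MTK (AT1G49820) at 0.46, ARD2 (AT4G14710) at 0.42 and DEP1 (AT5G53850) at 0.35. Genes with the more negative response in fls2 were UMAMIT29 (AT4G01430) at -2.09, AT5G49770 at -1.08, ZIP4 (AT1G10970) at -0.91, IRT3 (AT1G60960) at -0.88, bHLH11 (AT4G36060) at -0.86, RD29A (AT5G52310) at -0.79, ZIP3 (AT2G32270) at -0.70, AT3G43670 at -0.67 and ABCI8 (AT4G04770) at -0.56. Of these 23 genes, 14 lost the call in at least 1 of the 12 fits that each left out 1 library. The number of such fits was 11 for bHLH11 and ZIP3, 10 for ABCG37 and 9 for ORG1. It was 8 for ARD2 and AT3G43670, and 7 for FPN2, MTK and DEP1. NET3A and RD29A lost the call in 6, ZIP4 in 3, and PYE and ABCI8 in 1.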

How the results depend on the processing

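The count for flg22-treated fls2 was 1079, and 127 with a 2-fold minimum, 1625 in a fit of the 6 libraries alone, 2226 in that fit with a replicate block and 526 to 1163 with 1 library left out. Untreated fls2 gave 84 with a 2-fold minimum and 257 to 333 with 1 library left out. Flg22-treated WT gave 14 with a 2-fold minimum, 5 in a fit of its 6 libraries alone, 53 in that fit with a replicate block, 75 with DESeq2 and 8 to 160 with 1 library left out. The difference between fls2 and WT gave 89 genes with DESeq2, 80 in a fit of its 12 libraries alone with a replicate block and 19 to 46 with 1 library left out. The difference between flg22-treated and untreated fls2 gave 0 in every alternative. Fits without a library hold fewer samples; for the other shifts the cause was not tested. The fits on the compared libraries with a block were added after the data were seen. A replicate block in the fit of all 36 libraries gave 1157 genes for flg22-treated fls2, 465 for untreated fls2, 25 for flg22-treated WT, 0 for the difference within fls2 and 50 for that between fls2 and WT. Same-numbered fls2 libraries under flg22 had correlations of 0.133, 0.019 and 0.126 between their deviations, so the numbers were not taken as pairs, although each library correlated best with its own number. While that block raised the count in the fit of the 6 libraries, it ended the calls of bHLH38, bHLH100, MYB10, MYB72, IRT1, FRO2, NAS1, GSTL1, AT1G52130, AT1G52120, CYP82C4 and HMA2 there (adjusted p between 0.0583 and 0.271, edgeR), those of CYP82C4, HMA2 and AT1G52120 being lost in that fit without the block too. In the fit of all libraries it ended the call of CYP82C4 (adjusted p = 0.0583), and leaving out the low-count filter ended that of FRO5 (0.0563). Of 100 gene calls followed in flg22-treated fls2, 70 held in every alternative and 23 were lost on leaving out 1 library. Of the genes followed, only NRAMP1, which passed in none of these fits, changed sign, at -0.042 without +Fe replicate 1 and -0.073 without -Fe replicate 3, the highest such value being 0.078. Low counts limit FLS2, FRO5 and the genes at 0.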
